A study of Homo sapiens with 6 samples.

Results

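The genes described here are 36 components of the autophagy machinery: the kinases and scaffold that start the process, the lipid kinase complexes, the membrane and lipid transfer proteins, the ubiquitin-like conjugation enzymes, the ATG4 proteases, 4 cargo receptors and the transcription factors TFEB and TFE3. They were taken by gene symbol from a table of 61806 genes, and each of the 36 symbols matched 1 row. The table comes from RNA-seq of HCT116, an established human colorectal carcinoma line of epithelial origin. In 3 libraries the cells had received a control short interfering RNA (si-NC, labelled wildtype), and in the other 3 one against STRIP2 (si-STRIP2, labelled STRIP2 knockdown). STRIP2 is known as a striatin-interacting protein of the STRIPAK assembly, and the series title concerns LCN2 and ferroptosis. All 6 libraries share the line, the McCoy's 5A medium and the poly(A) selected, directional library type. The labels number the libraries within each group and do not say whether they came from separate cultures, so the p-values measure the spread between these libraries only. The siRNA sequences, doses and times are not given in the sources used here.

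In autophagy, a double membrane grows around cytoplasmic cargo, closes to an autophagosome and fuses with a lysosome, where the cargo is degraded. The ULK complex starts the process and a class III PI3-kinase complex marks the site with PI3P. ATG9A, the ATG2 proteins and the WIPI proteins supply and shape the membrane, and a pair of ubiquitin-like conjugation systems attach ATG8 proteins such as LC3 to it. Cargo receptors link ubiquitinated or damaged cargo to the lipidated ATG8 proteins. Epithelial tumour cells use the pathway to recycle nutrients and remove damaged organelles.

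Library totals ranged from 17184963 to 21721218 counts. The mitochondrial share of counts was 4.88% to 8.88% in si-NC and 5.73% to 6.30% in si-STRIP2, with groups that overlapped. Control libraries differed more among themselves than knockdown libraries, with a chi-square per degree of freedom of 4.91 to 16.6 against 2.14 to 2.26. Levels are given in FPKM, fragments scaled to the exonic length of the gene and to the library total. Of 9 markers of colorectal epithelium, 6 had a mean of at least 1 FPKM, with a summed level of 691 to 721 in si-NC and 668 to 691 in si-STRIP2. The sum joins markers that moved in opposite directions: CDH1 (36.6 to 24.2 FPKM), KRT18, EPCAM and KRT20 (0.627 to 0.313 FPKM) fell, KRT19 and CDX2 (2.51 to 3.28 FPKM) rose, KRT8 did not pass the test, and CEACAM5 and VIL1 were near 0 in both groups. Their part in the results was not tested. Of the 15 leukocyte, fibroblast and endothelial markers, COL1A1 alone had a mean of at least 1 FPKM. The summed level was 0.14 to 0.25 FPKM (si-NC) against 0.07 to 0.27 for the leukocyte list, 2.22 to 2.68 against 1.94 to 2.2 for the fibroblast list, with DCN and COL1A2 at 0 throughout, and 0.37 to 0.46 against 0.16 to 0.23 for the endothelial list. The targeted gene STRIP2 (ENSG00000128578) had 3.19, 3.77 and 3.81 FPKM in the control libraries and 2.71, 2.53 and 2.58 in the si-STRIP2 libraries. Its groups did not overlap, and 72.6% of the control level remained (log2 fold change -0.46, SE 0.083, edgeR adjusted p = 1.62e-05, where SE is the standard error of the log2 fold change).

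The main result was a mixed response that leaned downward. Of the 36 genes, all of which passed the filter on low counts, 17 fell and 8 rose in si-STRIP2 cells, and 11 did not pass the test (edgeR quasi-likelihood test, adjusted p under 0.05 over all genes tested). The largest falls were those of WIPI1, RB1CC1 and OPTN, to 58.1%, 58.3% and 61.0% of the control level, and the largest rise was that of PIK3R4, to 157%. These are levels in bulk RNA, in which a change in every cell and a change in some of the cells cannot be told apart. The 25 called genes are 69.4% of the 36, where 54.8% of the 15687 genes tested were called. Calls were more common among abundant genes: of all genes with a mean of at least 10 FPKM, 34.3% fell and 38.01% rose. Under 5 FPKM, 22.2% fell and 21.8% rose. Neither this comparison nor the later ones with 54.8% was matched by level. Falls took 47.2% of the 36 genes and 27% of all genes tested. Rises took 22.2% of the 36 genes and 27.8% of all genes tested. The 36 genes were chosen with earlier results of these data known. These shares therefore describe the list and cannot serve as a test of it.

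The sizes of the changes were close to those of all genes tested. The median absolute log2 fold change was 0.25 over the 36 genes and 0.26 over all genes tested, and the signed medians were -0.058 and 0.014. RB1CC1, WIPI1, OPTN, PIK3R4 and ATG16L2, 13.9% of the 36, were called with 1.5-fold or more, a share near the 14.5% of all genes tested. Under a stricter edgeR test, against a change of at least 1.2-fold, 9 of the 36 were called lower and 2 higher. Together these are 30.6% of the 36, where 23.7% of all genes were called that way. In FPKM, 25 of the 36 genes (69.4%) had groups without overlap, 16 of them lower and 9 higher, against 58.6% of all genes tested.

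**Figure D1:**
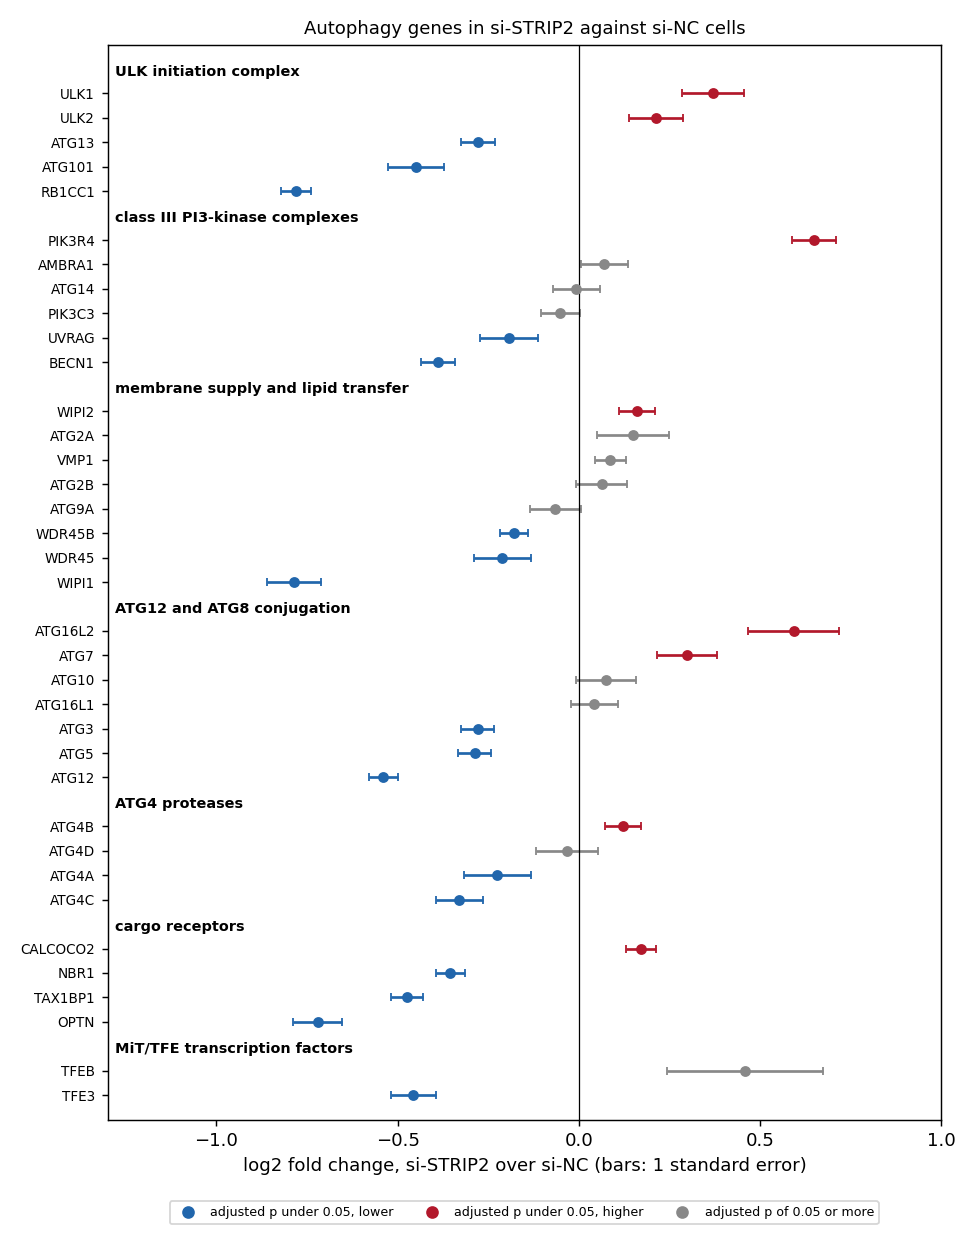
Log2 fold change of the 36 genes in si-STRIP2 over si-NC cells from the edgeR fit (points) with 1 standard error (bars), grouped by role, with colour for the call at an adjusted p under 0.05. Every role except the transcription factors holds both called falls and called rises, from -0.79 for WIPI1 to 0.65 for PIK3R4.

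The 5 genes of the ULK initiation complex were all called, where 54.8% of all genes tested were called. The scaffold and accessory subunits fell and the kinases rose. RB1CC1, also known as FIP200 (ENSG00000023287, chromosome 8, 52622458 to 52745843, minus strand), encodes the large scaffold of the complex. It had 21.69, 23.42 and 22.34 FPKM in the control libraries and 12.96, 13.17 and 13.18 in the si-STRIP2 libraries. The groups were far apart, and the si-STRIP2 values were nearly equal (log2 fold change -0.78, SE 0.041, edgeR adjusted p = 3.40e-17). ATG101 (ENSG00000123395, chromosome 12, 52069246 to 52077495, plus strand) stabilises ATG13 within the complex. It shares 19.2% of its exonic bases with AC025259.1 on the other strand, which had no counts. The values of ATG101 were 7.88, 7.20 and 7.07 FPKM in si-NC and 5.33, 5.69 and 5.29 in si-STRIP2, without overlap (log2 fold change -0.45, SE 0.077, edgeR adjusted p = 7.24e-06). ATG13, the subunit that binds the kinase and the scaffold, fell from 11.1 ± 0.282 to 9.16 ± 0.474 FPKM (SD, n = 3; log2 fold change -0.28, edgeR adjusted p = 7.44e-06).

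ULK1 and ULK2 encode the serine/threonine kinases of the complex and were among the less abundant of the 36 genes. ULK1 (ENSG00000177169, chromosome 12, 131894622 to 131923150, plus strand) had 2.14, 2.00 and 2.32 FPKM in si-NC and 2.91, 3.02 and 2.44 in si-STRIP2. Its lowest knockdown library, replicate 3, lay just above the highest control library (log2 fold change 0.37, SE 0.085, edgeR adjusted p = 0.000375). ULK2 (ENSG00000083290, chromosome 17, 19770829 to 19867936, minus strand) had 1.82, 1.91 and 1.91 FPKM in si-NC and 2.23, 2.08 and 2.23 in si-STRIP2. The rise was small and the groups did not overlap (log2 fold change 0.21, SE 0.075, edgeR adjusted p = 0.0156). The call of ULK2 was lost under 6 of 17 alternatives. It was lost without si-NC replicate 1 (edgeR adjusted p = 0.0656) and without si-STRIP2 replicate 3 (0.0596). Its adjusted p ranged from 0.0142 to 0.827 over all 17. The top of this range came from the stricter test against a 1.2-fold change, which asks another question. So did the top of every later range of adjusted p over all alternatives. No other alternative for ULK2 gave more than 0.0656. On the FPKM scale, which is per length, the level of RB1CC1 was 9.63 to 11.7 times that of ULK1 in the control libraries and 4.36 to 5.40 times in the knockdown libraries.

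Among the class III PI3-kinase genes, 1 rose, 2 fell and 3 did not pass the test (50% called, against 54.8% of all genes tested). PIK3R4, also known as VPS15 (ENSG00000196455, chromosome 3, 130678934 to 130746829, minus strand), encodes the regulatory subunit that holds the lipid kinase. Its FPKM values were 5.00, 5.41 and 5.36 in si-NC and 8.85, 7.97 and 7.92 in si-STRIP2. Every knockdown library stood well above every control library (log2 fold change 0.65, SE 0.060, edgeR adjusted p = 3.83e-11). PIK3C3, the lipid kinase VPS34 itself, had 2.82, 3.01 and 3.13 FPKM in si-NC and 2.87, 2.89 and 2.88 in si-STRIP2, which overlap (log2 fold change -0.051, edgeR adjusted p = 0.438). The ratio of PIK3C3 to PIK3R4 in FPKM was 0.556 to 0.584 in the control libraries and 0.324 to 0.364 in the knockdown libraries.

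BECN1 (ENSG00000126581, chromosome 17, 42810134 to 42833350, minus strand) encodes beclin 1, the subunit through which BCL2 proteins restrain the complex. It had 15.37, 14.07 and 14.01 FPKM in si-NC and 11.10, 11.55 and 10.69 in si-STRIP2. The groups were clearly separated (log2 fold change -0.39, SE 0.048, edgeR adjusted p = 1.70e-08). PSME3, on the other strand, shares 4.68% of the exonic bases of BECN1, holds 262% as many counts and also fell (log2 fold change -0.35, edgeR adjusted p = 2.73e-08). CNTD1, also on the other strand, shares a further 12.4%. The part of these genes in the value of BECN1 was not tested, and a level in FPKM may be too low where exonic bases are shared, since genes lying wholly under exons of the other strand nearly all had no counts. UVRAG, the subunit of the endosomal form of the complex, was called lower with a log2 fold change of -0.19 (edgeR adjusted p = 0.0410). That call was lost under 9 of 17 alternatives. The edgeR adjusted p was 0.169 without si-NC replicate 1 and 0.0639 without si-NC replicate 2. It was 0.283 without si-STRIP2 replicate 1 (log2 fold change -0.12) and 0.0543 without si-STRIP2 replicate 2. With all 6 libraries, DESeq2 (adjusted p = 0.0967), limma on log2(FPKM + 1) (0.1005) and limma on log2(FPKM + 0.1) (0.0980) also lost the call. So did edgeR without the filter on low counts (0.0645). Over all 17 alternatives for UVRAG the adjusted p ranged from 0.0196 to 0.911, and outside the 1.2-fold test it was at most 0.283. ATG14, which directs the complex to autophagosome formation, had a log2 fold change of -0.0066 (edgeR adjusted p = 0.941). AMBRA1, a scaffold that regulates beclin 1, had one of 0.070 (edgeR adjusted p = 0.366), although its FPKM of 3.47 to 3.56 in si-NC lay below the 3.68 to 3.72 in si-STRIP2.

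The 8 genes of membrane supply and lipid transfer held the largest fall of all 36 and 4 genes that did not pass the test. In this role 50% were called, against 54.8% of all genes tested. WIPI1 (ENSG00000070540, chromosome 17, 68420948 to 68457513, minus strand) encodes a PI3P-binding propeller protein found on forming autophagosomes. Its FPKM values were 7.64, 8.20 and 7.69 in si-NC and 4.57, 4.74 and 4.35 in si-STRIP2. The groups stood far apart (log2 fold change -0.79, SE 0.074, edgeR adjusted p = 5.83e-11). ARSG, on the other strand, shares 24.3% of the exonic bases of WIPI1 and holds 53.7% as many counts, with a log2 fold change of -0.16 (edgeR adjusted p = 0.212).

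WIPI2 (ENSG00000157954, chromosome 7, 5190196 to 5233840, plus strand), the relative of WIPI1 that recruits ATG16L1 to PI3P, moved the other way. It had 7.63, 7.67 and 6.87 FPKM in si-NC and 7.96, 8.75 and 8.15 in si-STRIP2, a small rise without overlap (log2 fold change 0.16, SE 0.050, edgeR adjusted p = 0.00710). The call of WIPI2 was lost when si-NC replicate 3 (edgeR adjusted p = 0.0631) or si-STRIP2 replicate 2 (0.0765) was left out. Its adjusted p ranged from 0.00309 to 1 over the 17 alternatives, and outside the 1.2-fold test it was at most 0.0765. WIPI1 and WIPI2 had like FPKM values in the control, with a ratio of 1.00 to 1.12. In the knockdown libraries that ratio was 0.534 to 0.574. The FPKM of WIPI1 may be too low in both groups, since 24.3% of its exonic bases are shared with ARSG on the other strand. The paralogues WDR45B and WDR45, the other PI3P-binding propellers, both fell slightly. WDR45B, the most abundant of the 36 genes, went from 48.4 ± 0.332 to 42.9 ± 0.348 FPKM (SD, n = 3; log2 fold change -0.18, edgeR adjusted p = 0.000244). WDR45 had a log2 fold change of -0.21 (edgeR adjusted p = 0.0226). Its call was lost when si-NC replicate 2 (0.0598) or si-STRIP2 replicate 3 (0.0649) was left out. With all 6 libraries it was lost with DESeq2 (adjusted p = 0.0607). The range over the 17 alternatives for WDR45 was 0.0129 to 0.824, with at most 0.0649 outside the 1.2-fold test. PRAF2, on the same strand, shares 13.9% of the exonic bases of WDR45 and holds 38.2% as many counts.

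ATG9A, the membrane-spanning lipid scramblase of the seed vesicles, had a log2 fold change of -0.065 (edgeR adjusted p = 0.446). The lipid transfer proteins ATG2A and ATG2B had 0.15 and 0.063 (edgeR adjusted p = 0.202 and 0.472). VMP1, an endoplasmic reticulum scramblase, had 33.48, 32.54 and 35.50 FPKM in si-NC and 35.33, 36.39 and 36.40 in si-STRIP2, with overlap (log2 fold change 0.088, edgeR adjusted p = 0.0730). VMP1 passed the test when si-NC replicate 3 (edgeR adjusted p = 0.00916) or si-STRIP2 replicate 1 (0.0486) was left out. Over all its alternatives the adjusted p ranged from 0.00916 to 1, and outside the 1.2-fold test it was at most 0.351. Changes in these 4 genes were therefore not detectable with all 6 libraries.

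**Figure D2:**
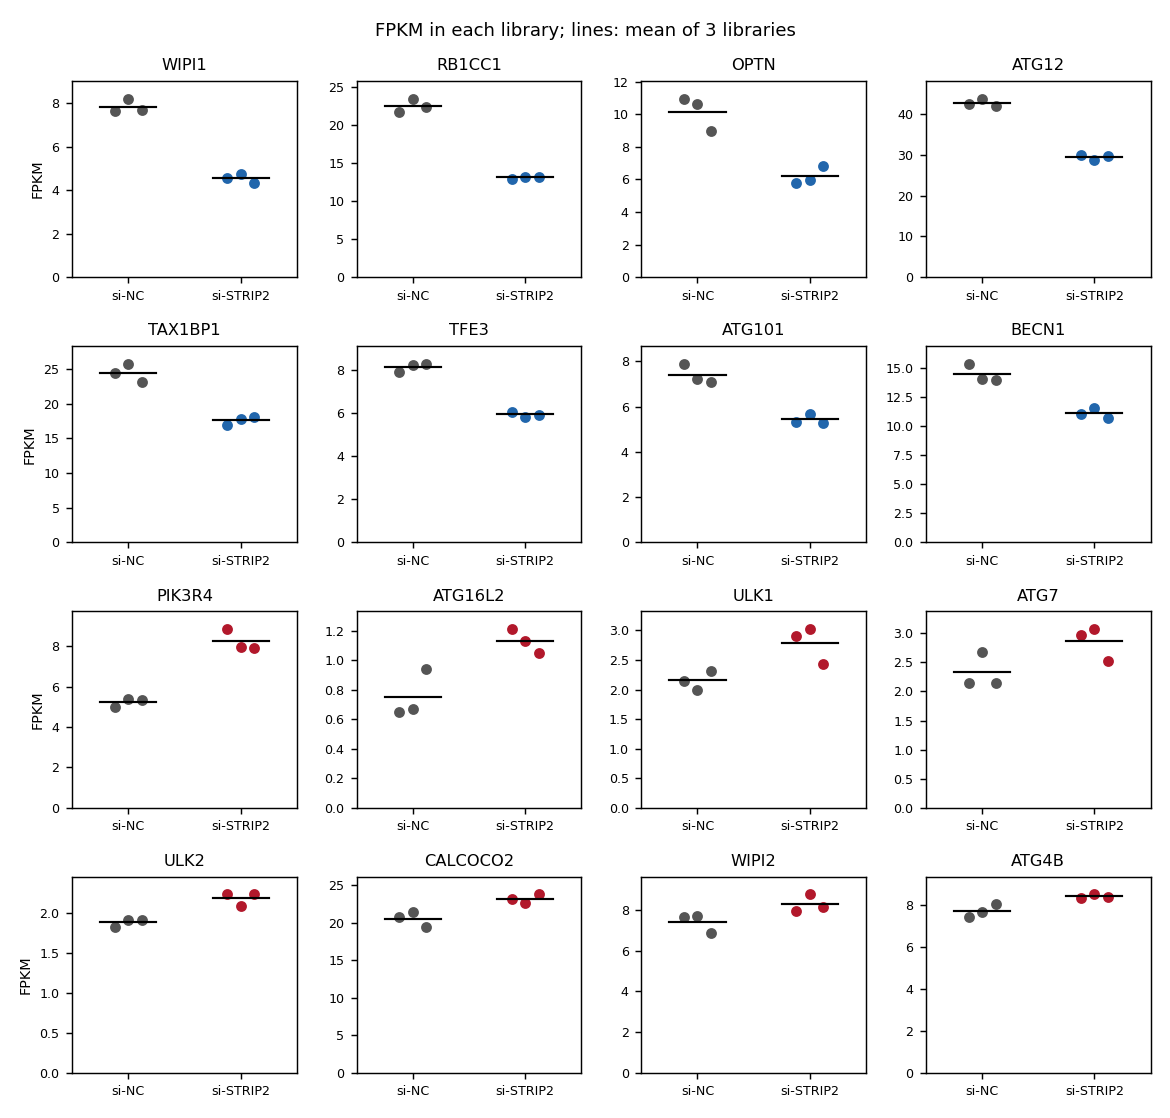
FPKM in each library for the 8 genes with the largest called falls (blue) and the 8 called rises (red), with si-NC in grey, a line at the mean of 3 libraries and each vertical axis starting at 0. All 8 falls and all rises except that of ATG7 show groups that do not overlap.

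Of the 7 conjugation genes, 3 fell and 2 rose (71.4% called, against 54.8% of all genes tested). ATG12 (ENSG00000145782, chromosome 5, 115828200 to 115841837, minus strand) encodes the ubiquitin-like protein that is joined to ATG5. The control libraries held 42.53, 43.68 and 42.05 FPKM of it and the si-STRIP2 libraries 29.98, 28.67 and 29.80. Both groups were tight and far apart (log2 fold change -0.54, SE 0.039, edgeR adjusted p = 1.10e-13). AP3S1, on the other strand, shares 4.25% of its exonic bases, holds 158% as many counts and had a log2 fold change of -0.065 (edgeR adjusted p = 0.187). ATG5, the partner of ATG12, and ATG3, the E2-like enzyme that passes ATG8 proteins to lipid, fell by similar amounts, with log2 fold changes of -0.29 and -0.28 (edgeR adjusted p = 1.99e-06 and 2.68e-06). SLC35A5, on the other strand, shares 2.47% of the exonic bases of ATG3 and holds 43.6% as many counts. SLC35A5 also fell (log2 fold change -0.34, edgeR adjusted p = 3.25e-06), and its part in the value of ATG3 was not tested.

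ATG7 and ATG16L2 rose. ATG7 (ENSG00000197548, chromosome 3, 11272309 to 11557665, plus strand) encodes the E1-like enzyme that activates ATG12 and the ATG8 proteins. It had 2.15, 2.68 and 2.15 FPKM in si-NC and 2.98, 3.07 and 2.53 in si-STRIP2. The groups overlapped, since si-NC replicate 2 lay above si-STRIP2 replicate 3 (log2 fold change 0.30, SE 0.082, edgeR adjusted p = 0.00254). The call was lost with limma on log2(FPKM + 1) (adjusted p = 0.0595). The adjusted p for ATG7 ranged from 9.63e-05 to 0.358 over the 17 alternatives, and outside the 1.2-fold test it was at most 0.0595. VGLL4, on the other strand, shares 18.1% of the exonic bases of ATG7 and holds 121% as many counts, and it fell (log2 fold change -0.57, edgeR adjusted p = 7.61e-09).

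ATG16L2 (ENSG00000168010, chromosome 11, 72814406 to 72843674, plus strand), the less abundant relative of ATG16L1, had 0.65, 0.67 and 0.94 FPKM in si-NC and 1.21, 1.13 and 1.05 in si-STRIP2. Its control replicate 3 stood above the other controls and below every knockdown library (log2 fold change 0.59, SE 0.126, edgeR adjusted p = 0.000148). Without that control library the log2 fold change was 0.77. FCHSD2, on the other strand, holds 271% as many counts over 7.89% of the exonic bases and also rose (log2 fold change 0.23, edgeR adjusted p = 0.0101). ATG16L1, the subunit that places the ATG12 and ATG5 conjugate on the membrane, had a log2 fold change of 0.043 (edgeR adjusted p = 0.593). ATG10, the E2-like enzyme for ATG12, had one of 0.076 (edgeR adjusted p = 0.454), beside the highly expressed RPS23, which shares 6.86% of its exonic bases.

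The ATG4 cysteine proteases trim ATG8 proteins before lipidation and release them from membranes afterwards. Of the 4 genes, ATG4C fell, ATG4A fell and ATG4B rose by small amounts, and ATG4D did not pass the test. That is 75% called, against 54.8% of all genes tested. ATG4C went from 11.8 ± 0.220 to 9.37 ± 0.878 FPKM (SD, n = 3; log2 fold change -0.33, edgeR adjusted p = 5.67e-05). ATG4B (ENSG00000168397, chromosome 2, 241637213 to 241673857, plus strand), the most active of the family on LC3, had 7.44, 7.68 and 8.04 FPKM in si-NC and 8.35, 8.50 and 8.38 in si-STRIP2. Its groups did not overlap, but the change was under 1.1-fold (log2 fold change 0.12, SE 0.049, edgeR adjusted p = 0.0367).

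The calls of ATG4B and ATG4A were the least stable of the 25. That of ATG4B was lost under 11 of 17 alternatives. Among them were the fits without si-NC replicate 1 (edgeR adjusted p = 0.153) and si-NC replicate 2 (0.0988). The fits without si-STRIP2 replicate 2 (0.0976) and si-STRIP2 replicate 3 (0.0870) lost it too. Its adjusted p ranged from 0.0157 to 1, and outside the 1.2-fold test it was at most 0.153. ATG4A, at a log2 fold change of -0.22 (edgeR adjusted p = 0.0397), lost its call under 10 of 17. Leaving out si-NC replicate 3, its lowest control at 4.71 FPKM, gave -0.33 (edgeR adjusted p = 0.00232), and leaving out any other library gave adjusted p-values of 0.0565 to 0.208. Over all 17 alternatives for ATG4A the range was 0.00232 to 0.727, with at most 0.208 outside the 1.2-fold test. ATG4D had a log2 fold change of -0.032 (edgeR adjusted p = 0.777).

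The 4 cargo receptors were all called, 3 lower and 1 higher, where 54.8% of all genes tested were called. OPTN (ENSG00000123240, chromosome 10, 13099449 to 13138308, plus strand) encodes optineurin, a receptor for ubiquitinated mitochondria and bacteria. Its FPKM values were 10.94, 10.60 and 8.94 in si-NC and 5.80, 5.99 and 6.81 in si-STRIP2. Replicate 3 was the library nearest to the other group on both sides, and the groups still did not overlap (log2 fold change -0.72, SE 0.068, edgeR adjusted p = 4.77e-11). TAX1BP1 (ENSG00000106052, chromosome 7, 27739331 to 27844564, plus strand) encodes a receptor for protein aggregates. It had 24.40, 25.68 and 23.09 FPKM in si-NC and 16.90, 17.76 and 18.13 in si-STRIP2, well apart (log2 fold change -0.47, SE 0.043, edgeR adjusted p = 2.42e-11). NBR1, which gathers ubiquitinated aggregates and peroxisomes, fell from 24.5 ± 0.627 to 19.2 ± 0.460 FPKM (SD, n = 3; log2 fold change -0.35, edgeR adjusted p = 3.76e-09).

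CALCOCO2, also known as NDP52 (ENSG00000136436, chromosome 17, 48831018 to 48866522, plus strand), is a receptor for bacteria and mitochondria and a relative of TAX1BP1. It was the receptor that rose, with 20.75, 21.51 and 19.51 FPKM in si-NC and 23.20, 22.71 and 23.80 in si-STRIP2. The groups did not overlap, and the rise was under 1.2-fold (log2 fold change 0.17, SE 0.042, edgeR adjusted p = 0.000745). Summed over the 4 receptors, FPKM was 75.5 to 83.0 in the control libraries and 64.6 to 68.3 in the knockdown libraries.

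TFE3 and TFEB encode related helix-loop-helix factors that move to the nucleus when mTORC1 is inactive and switch on lysosomal and autophagy genes. TFE3 (ENSG00000068323, chromosome X, 49028726 to 49043410, minus strand) had 7.90, 8.23 and 8.27 FPKM in si-NC and 6.04, 5.83 and 5.93 in si-STRIP2. The fall was large beside the spread within either group (log2 fold change -0.46, SE 0.063, edgeR adjusted p = 1.84e-07). TFEB was the least abundant of the 36 genes, with 0.26, 0.23 and 0.27 FPKM in si-NC and 0.36, 0.30 and 0.39 in si-STRIP2. Its libraries held as few as 27 counts, and although the groups did not overlap it did not pass the test (log2 fold change 0.46, SE 0.216, edgeR adjusted p = 0.0711), except without si-STRIP2 replicate 2 (0.0460). Over its 14 alternatives the adjusted p for TFEB ranged from 0.0460 to 0.237, with at most 0.217 outside the 1.2-fold test. The ratio of TFE3 to TFEB in FPKM was 30.4 to 35.8 in the control libraries and 15.2 to 19.4 in the knockdown libraries.

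Levels of the 36 genes spanned a wide range, and the share that fell was highest among the most abundant. Of the 12 genes with a mean of at least 10 FPKM over all 6 libraries, 10 fell, 1 rose (CALCOCO2) and 1 did not pass (VMP1). Among all tested genes at that level, 34.3% fell and 38.01% rose. Of the 11 genes from 5 to 10 FPKM, 5 fell, 3 rose and 3 did not pass, where 32.1% of all such genes fell and 32.1% rose. This middle class holds WIPI1 and OPTN as well as PIK3R4, so large changes of both directions. Of the 13 genes under 5 FPKM, 2 fell (WDR45 and UVRAG), 4 rose (ULK1, ULK2, ATG7 and ATG16L2) and 7 did not pass, where 22.2% of all such genes fell and 21.8% rose. The median log2 fold change was -0.31 in the upper class, -0.065 in the middle class and 0.076 in the lower one, and over all tested genes it was 0.022, 0.012 and 0.010 in the same classes. These shares are a description of the list, without a test.

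**Figure D3:**
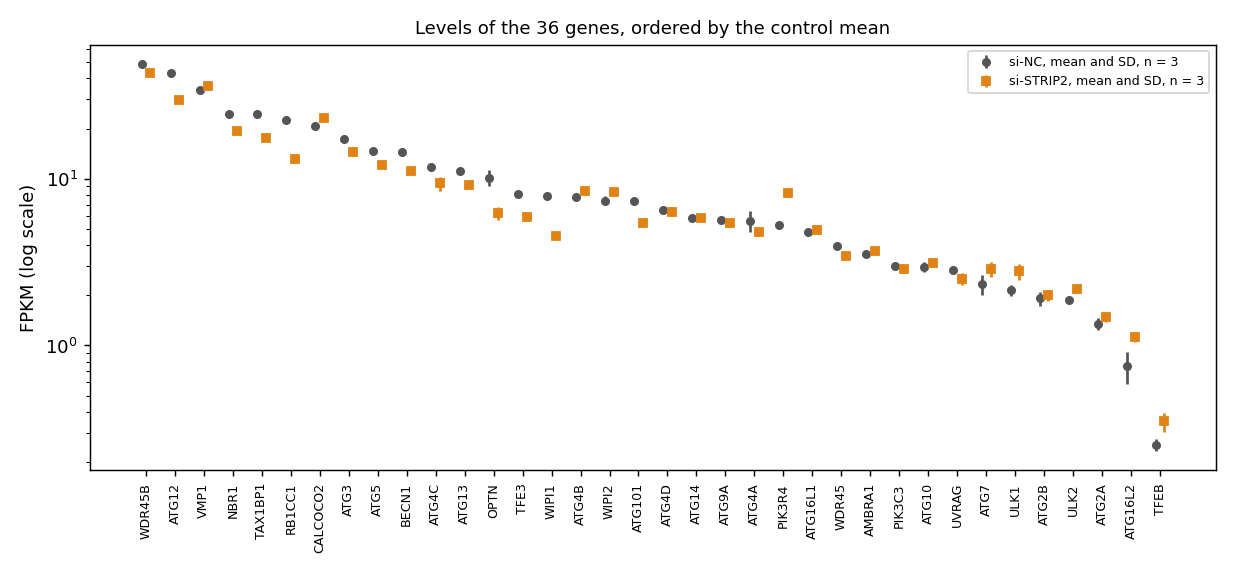
Mean FPKM with SD over 3 libraries on a log scale for the 36 genes, ordered by the si-NC mean, with si-NC as grey circles and si-STRIP2 as orange squares. Among the abundant genes on the left the knockdown means mostly lie below the control means, and among the scarce genes on the right they mostly lie above, WDR45 and UVRAG being called exceptions.

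Promoter sequences were compared because TFE3 and TFEB bind an E-box with the core CACGTG, and lysosomal genes carry the longer CLEAR element around it. RefSeq promoter windows (GRCh38.p14, 250 bases before to 50 after the start) were found for 32 of the 36 genes, with 41 windows. CACGTG was present for 2 genes, ATG3 and ATG14 (6.25%), against 8.78% of all 27305 genes in the promoter table. The CLEAR core TCACGTGA was present for ATG3 alone (3.13%, against 1.18%), beginning 5 bases after the start. The AP-1 element TGANTCA was present for TFE3 and WDR45 (6.25%, against 9.37%), and the ATF4 and CEBP element TTGCATCA for none of the 32 (against 1.08%). All words were searched on both strands, TCACGTGA contains CACGTG, and the last pair of words was chosen after the others. ATG3, TFE3 and WDR45 fell, ATG14 did not pass the test, and the other 11 genes that fell and have a window hold none of these words there. The stretches before the start that hold a match are shown 5′ to 3′ on the strand of the gene, with the word in capitals, for chr3:112561963-112562020 (ATG3), chr14:55411831-55411891 (ATG14), chrX:49043358-49043439 (TFE3) and chrX:49079891-49079977 (WDR45), all on the minus strand.
ATG3: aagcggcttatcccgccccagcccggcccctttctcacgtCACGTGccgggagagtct
ATG14: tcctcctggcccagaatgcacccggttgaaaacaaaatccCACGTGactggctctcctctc
TFE3: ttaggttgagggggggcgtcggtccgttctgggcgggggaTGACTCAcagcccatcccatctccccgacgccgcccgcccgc
WDR45: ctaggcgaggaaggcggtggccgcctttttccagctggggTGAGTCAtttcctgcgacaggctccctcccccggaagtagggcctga

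In these 4 stretches the words begin between 18 and 50 bases before the start. A match is a description of the letters and not of a bound site.

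The 3′ UTRs of the 36 genes were searched for CTGAATT, a 7-base word that an earlier analysis of these data had singled out and that occurs in the 3′ UTR of STRIP2. Over 12614 tested genes with a GENCODE 29 3′ UTR of at least 50 bases, 46.8% of the 2337 genes with the word fell, against 25.9% of the others. The median 3′ UTR lengths of these groups were 3101 and 1049 bases. Since the word was picked from these same data, this difference is a description and cannot serve as a test of the word. Of the 36 genes, 3 held the word (8.33%, against 18.5% of all). RB1CC1 held 2 copies and fell, PIK3C3 held 4 and did not pass the test, and ULK2 held 1 and rose. The other 16 genes that fell, WIPI1 and OPTN among them, did not hold it in the transcript searched. The sites are shown for STRIP2 (chr7:129487357-129487385, plus strand), for ULK2 (chr17:19774806-19774834, minus strand) and for the first copy in PIK3C3 (chr18:42081518-42081546, plus strand), with the word in capitals.
STRIP2: cttaggcactaCTGAATTttttatgatgg
ULK2: ggtaaaactcaCTGAATTgttgtgtaata
PIK3C3: acagcagtaacCTGAATTtagattgtcac

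Other genes of the pathway were read from 5 further lists, together 83 genes, of which 81 were tested, 32 fell and 28 rose (74.1% called, against 54.8% of all genes tested). Of the ATG8 family and SQSTM1, which are the substrates of the conjugation enzymes and the best known receptor, 3 of 6 tested genes fell and 1 rose. These are 50% and 16.7%, where 27% of all genes tested fell and 27.8% rose. MAP1LC3B, the gene of LC3B, fell from 116.9 ± 2.48 to 43.2 ± 1.08 FPKM (SD, n = 3; log2 fold change -1.44, edgeR adjusted p = 3.40e-24), which is a larger fall than that of any of the 36 genes. MAP1LC3B2 fell as well (-0.77), but it is a near-identical copy of MAP1LC3B and its value is uncertain. GABARAPL2 rose by 0.19 on the log2 scale, and SQSTM1 was at -0.094 (edgeR adjusted p = 0.0511).

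Among 34 genes of AMPK, mTORC1 and TSC control, the kinases that switch the ULK complex on and off and their regulators, 10 fell and 13 rose. The shares were 29.4% and 38.2%, against 27% and 27.8% of all genes tested. PRKAA2, a catalytic subunit of AMPK, and RRAGD, a Rag GTPase, had the largest falls (log2 fold change -0.93 and -0.81, edgeR adjusted p = 1.54e-10 and 1.54e-11). SESN1, a leucine-sensing inhibitor of mTORC1, and NPRL2, a GATOR1 subunit, had the largest rises (0.62 and 0.43, edgeR adjusted p = 1.04e-08 and 7.85e-05). Of 13 other PI3P and membrane factors, 6 fell (46.2%) and 3 rose (23.1%). The extremes were RUBCNL at -1.23, a gene at only 0.103 FPKM in si-NC, SH3GLB1 at -0.41, EPG5 at 0.67 and EI24 at 0.23.

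Of 14 genes of fusion with the lysosome, 6 fell and 6 rose (42.9% each, against 27% and 27.8% of all genes tested). STX17, the autophagosomal SNARE, and YKT6, another SNARE, fell most (-0.41 and -0.37, edgeR adjusted p = 2.51e-08 and 3.23e-09), and VPS11, a shared subunit of the HOPS and CORVET tethers, rose most (0.50, edgeR adjusted p = 5.29e-07), followed by TECPR1 (0.25). Of 14 other selective receptors, 7 fell (50%) and 5 rose (35.7%). CCPG1, a receptor for the endoplasmic reticulum, fell from 4.06 ± 0.0557 to 1.44 ± 0.0721 FPKM (SD, n = 3; log2 fold change -1.50, edgeR adjusted p = 4.14e-18), and genes that share exonic bases with it held 63.7% as many counts. BCL2L13, a mitochondrial receptor, had -0.61, and PHB2 and FKBP8, also mitochondrial, had 0.31 and 0.26.

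**Figure D4:**
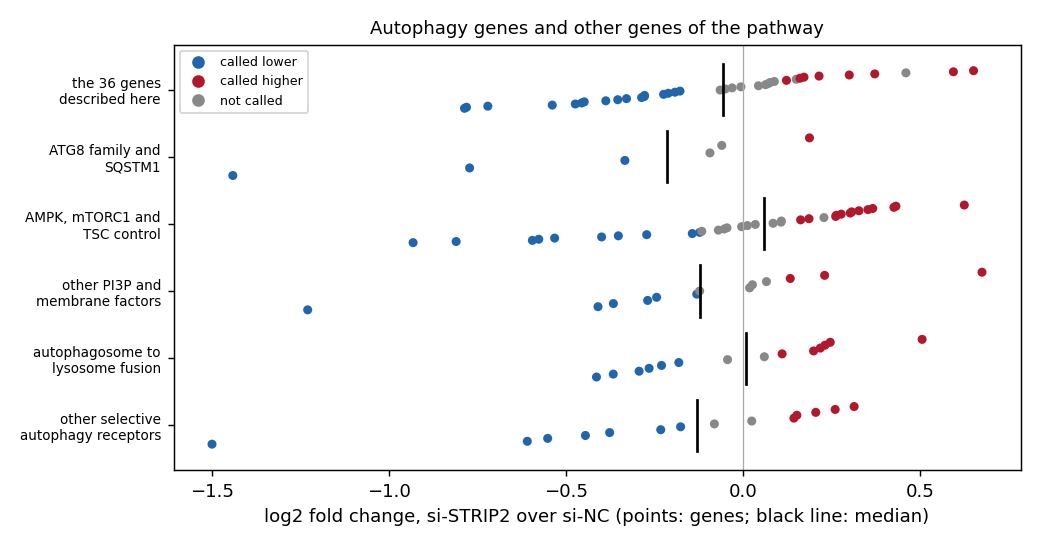
Log2 fold change of the 36 genes and of the tested genes of 5 further pathway lists (points, coloured by call), with the median of each list as a black line. Each list holds called falls and called rises, and the medians lie between -0.21 for the ATG8 family and SQSTM1 and 0.059 for AMPK, mTORC1 and TSC control.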

How the data were processed

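The authors deposited 1 table with a raw count and an FPKM value (fragments scaled to exonic size and library total) for each gene in each of the 6 libraries. Per the submitters' processing notes, the tools named were cutadapt 1.9.1, HISAT2 2.2.1 and HTSeq 0.6.1, with the build GRCh38.p13. The annotation release and the strand setting of the counting are not given in the sources used here. The deposited FPKM values differed by at most 0.005 from a recomputation from counts, exonic size and column total.

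The counts were tested in R 4.3.3 with edgeR 4.0.16: filterByExpr (minimum count 10) left 15687 genes, libraries were scaled by TMM, and a quasi-likelihood model with group as the only term gave 2-sided p-values, adjusted by Benjamini-Hochberg over all genes tested. Each standard error was taken as the size of the log2 fold change over the root of its F statistic. FPKM values are printed as levels. The script was run on simulated counts with a common dispersion and few changed genes, unlike these data. That run checks the code and not the calls made here. Alternatives used DESeq2 1.42.0, limma 3.58.1, other scaling and filters, and each library left out. Genes sharing exonic bases were found in GENCODE 29. Totals of 17184963 to 21721218 counts leave the least abundant genes imprecise.

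The members and lists were chosen with earlier results of these data known. Values in every library are given for the 8 largest called falls and the 8 largest called rises. From each further list, up to 2 called genes per direction are named by size of change, with SQSTM1 added after its value was seen.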

Additional observations from a re-analysis of the deposited data

How the results depend on the processing

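Of the 36 genes, 18 kept their direction and their side of the threshold under every alternative run for them, 11 of them called. Under the other tools, scalings and filters 20 to 25 of the 36 genes were called, against 25, and 6913 to 8604 of all genes, against 8599. DESeq2 called the fewest of the 36 (20, with 7238 of all genes). The fewest of all genes were called by limma on log2(FPKM + 0.1) (6913) and on log2(FPKM + 1) (6931). Those limma fits used another filter, tested 35 of the 36 genes and called 21. The number of genes tested changes with the filter, so the counts over all genes have different totals. Leaving out each library gave 21 to 25 calls, 14 to 17 lower and 6 to 9 higher, and 7690 to 8494 calls over all genes. The median log2 fold change of the 36 genes ranged from -0.079 to -0.032 in those fits and was -0.079 with at least 50 counts in 3 libraries. The test against a 1.2-fold change gave 11 calls (9 lower, 2 higher), 3723 over all genes and 23 in the further lists, fewer by construction. Limited to the 22 genes whose overlapping genes hold under 10% as many counts, 15 were called (68.2%). The share over all genes tested, 54.8%, was taken without such a limit. That limit goes by the counts of the other gene, so ATG9A and ATG101, which share 38.8% and 19.2% of their exonic bases, are among the 22. Direction turned for ATG2B when si-NC replicate 1 was left out (-0.014) and for ATG14 when si-NC replicate 1 (0.022) or si-STRIP2 replicate 1 (0.044) was left out. None of these passed the test and the cause was not tested. Over the fits with a library left out, ATG2B ranged from -0.014 to 0.11 and ATG14 from -0.034 to 0.044. Values of other genes that were not called also moved in those fits, from 0.086 to 0.20 for ATG2A, 0.021 to 0.10 for ATG10, -0.089 to -0.019 for PIK3C3 and -0.11 to -0.0076 for ATG9A. With the replicate block, 24 of the 36 genes and 8293 of all genes were called, ATG4B being the gene lost (edgeR adjusted p = 0.0600). Deviations from the group means of same-numbered libraries correlated at -0.086, -0.013 and -0.072 across genes, and those of differently numbered libraries at -0.040 to 0.11. No shift shared by same-numbered libraries was seen. These values cannot tell whether the libraries were prepared in pairs. The planned comparison of protein sequences was not run. TFEB, with 27 to 46 counts a library, and ATG16L2, with 99 to 194, are limited by their counts.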

Other observations

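Of the 36 genes, 14 share exonic bases with other genes that hold at least 10% as many counts, on the other strand except for PRAF2 and WDR45. Of 747 genes whose exonic bases all lie under exons of the other strand in GENCODE 29, 726 (97.2%) had 0 counts in all 6 libraries, against 53.1% of the 45610 genes with no such base. For antisense and lincRNA genes alone the shares were 96.8% and 55.6%, and for protein-coding genes 76.5% (of 17) and 19.7%. The library kit named in the labels is directional. In these counts, then, genes lying wholly under exons of the other strand nearly all had no reads assigned to them, while FPKM was computed over the full exonic size. The FPKM of a gene that shares many bases may therefore be too low, and by how much was not tested. The shares on the other strand were 24.3% for WIPI1 (ARSG), 19.2% for ATG101 (AC025259.1), 18.1% for ATG7 (VGLL4), 14.97% for ATG4D (KRI1), and 12.4% (CNTD1) and 4.68% (PSME3) for BECN1. On the same strand ATG9A shares 38.8% of its exonic bases with AC068946.2 and WDR45 shares 13.9% with PRAF2.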
